A study of Rattus norvegicus with 10 samples.

Results

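The beta-catenin pathway genes described here are 10 genes: Ctnnbip1, Ctnnb1, Apc, Axin1, Axin2, Lrp5, Lrp6, Dvl1, Bcl9 and Tcf7l1. They were matched exactly by gene symbol in the deposited table of estimated read counts, which held 9 of the 10 among 13686 symbols, and Axin1 was not analysed here. All 9 passed the filter on low counts, which left 11771 genes for testing. The set was selected on measured levels, because Ctnnbip1 was lower in every BT-11 library than in any untreated library, so the difference of Ctnnbip1 between the groups is a description and carries no test here. The same holds for the other members, since their values come from the same contrast.

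RNA of the left hippocampus came from 10 male rats of the TgF344-AD line (genotype Tg-AD in the labels), which carries human transgenes driven by a mouse prion promoter and models Alzheimer disease. Among them, 5 untreated rats ate rodent chow and 5 rats ate chow with BT-11, a compound known as a ligand of LANCL2, from 5 months of age for 6 months. All 10 rats carried the transgenes, were killed at 11 months under anaesthesia with xylazine and ketamine and were perfused with saline, and no rats without the transgenes were compared here. Libraries held 8984439 to 11301545 estimated counts. Levels are given as CPM, the count scaled to the library total, and differences as the log2 ratio of BT-11 over untreated hippocampi with its standard error (SE) or 95% interval from the fit. In tissue RNA, fewer cells of a type and less RNA per cell cannot be told apart.

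In the canonical Wnt pathway, a Wnt protein binds a Frizzled receptor and the co-receptor LRP5 or LRP6, and Dishevelled relays the signal inward. Without a Wnt signal, a destruction complex built on APC and axin marks beta-catenin for degradation; with it, beta-catenin accumulates, enters the nucleus and binds TCF and LEF factors, with BCL9 as a co-activator. CTNNBIP1, also called ICAT, is a small protein that binds beta-catenin and blocks its contact with TCF factors. In the hippocampus the pathway is known for its part in the birth and maturation of dentate granule cells and in synapse formation.

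Axin2 is a direct target of beta-catenin and TCF and serves as a common readout of the pathway, while Ctnnbip1 is the gene on which the set turns, so the 250 bases before the RefSeq start of both are shown, both on the plus strand of build GRCr8. Capitals mark CTTTGA, the core of the TCF and LEF motif, which was searched on both strands (CTTTGA or TCAAAG).
Ctnnbip1, chr5:165244848-165245097: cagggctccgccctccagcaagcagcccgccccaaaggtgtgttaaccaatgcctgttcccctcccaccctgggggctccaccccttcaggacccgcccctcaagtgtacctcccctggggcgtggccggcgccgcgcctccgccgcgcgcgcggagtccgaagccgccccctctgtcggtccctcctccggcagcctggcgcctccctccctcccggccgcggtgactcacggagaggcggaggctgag
Axin2, chr10:94398535-94398784: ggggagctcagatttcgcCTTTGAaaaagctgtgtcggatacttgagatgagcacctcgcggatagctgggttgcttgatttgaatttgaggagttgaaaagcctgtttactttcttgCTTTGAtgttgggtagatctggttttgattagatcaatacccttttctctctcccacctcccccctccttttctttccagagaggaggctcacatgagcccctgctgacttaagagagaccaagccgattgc
The Axin2 window held 2 matches, which begin at -232 and -132 counted from the start. The Ctnnbip1 window held no match and was 74% G and C, against 47.6% in the Axin2 window. Of the 7 members with a promoter in the table, only Axin2 held a match in this window, and 13.9% of 33469 promoters in the table held at least 1. A match describes the letters and is not a binding site, and these data do not measure binding.

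Ctnnbip1, listed on the plus strand of chromosome 5 from 166464252 to 166513028 in build rn6, was the only member whose groups did not overlap. In untreated replicates 1 to 5 it stood at 42.5, 44.7, 34.0, 40.6 and 42.1 CPM, and in BT-11 replicates 1 to 5 at 32.0, 32.5, 26.4, 32.1 and 27.4 CPM. The gap between the groups was narrow, since the lowest untreated library (replicate 3, 34.0 CPM) lay just above the highest BT-11 library (replicate 2, 32.5 CPM), while the other 4 untreated libraries were at 40.6 CPM or more. The untreated mean was 40.8 ± 4.06 CPM and the BT-11 mean 30.1 ± 2.92 CPM (SD, n = 5 each), a BT-11 level of 0.731 times the untreated one. The log2 fold change was -0.45 ± 0.0903 (SE), with a 95% interval from -0.65 to -0.26. Among all 11771 genes tested, 0.544% had every BT-11 library below every untreated one and 0.578% had every one above, 1.12% together. The rule used this property of Ctnnbip1, so nothing is read from it.

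The genes on both sides of Ctnnbip1 had log2 fold changes near 0. The table held a single line for Ctnnbip1, at 318 to 476 counts in untreated and 273 to 359 in BT-11 libraries, and 0 other lines overlapped it. Its neighbour before it, Lzic, encodes a protein that shares the beta-catenin-binding ICAT domain, and stood at 22.9 ± 1.5 and 23.0 ± 2.65 CPM (SD, n = 5 each), with a log2 fold change of -0.01 (95% interval -0.19 to 0.18). Its neighbour after it, Clstn1, which encodes a synaptic calsyntenin, had a log2 fold change of -0.04. Leaving out each library in turn gave Ctnnbip1 values from -0.51 (without untreated replicate 3) to -0.41. Replicate numbers 1 to 3 alone (3 against 3 rats) gave -0.43, and numbers 4 and 5 alone (2 against 2 rats) gave -0.48. Since the groups do not overlap by the choice of the gene, the sign of these values was fixed. That choice also favours a large size, so the values are given as a description only. These splits were chosen from earlier results of these data, and the labels name no batch. Replicates 4 and 5 were the closest pair among untreated (chi-square over degrees of freedom 7.14) and among BT-11 libraries (4.52). The 2 sets were not cleanly separate. BT-11 replicate 1 was about as close to replicates 4 and 5 (8.13 and 8.43) as to replicate 3 (8.22), and farther from replicate 2 (15.3). In the untreated group, replicate 3 was closer to replicate 4 (12.1) than to replicate 1 (13.4).

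**Figure D1:**
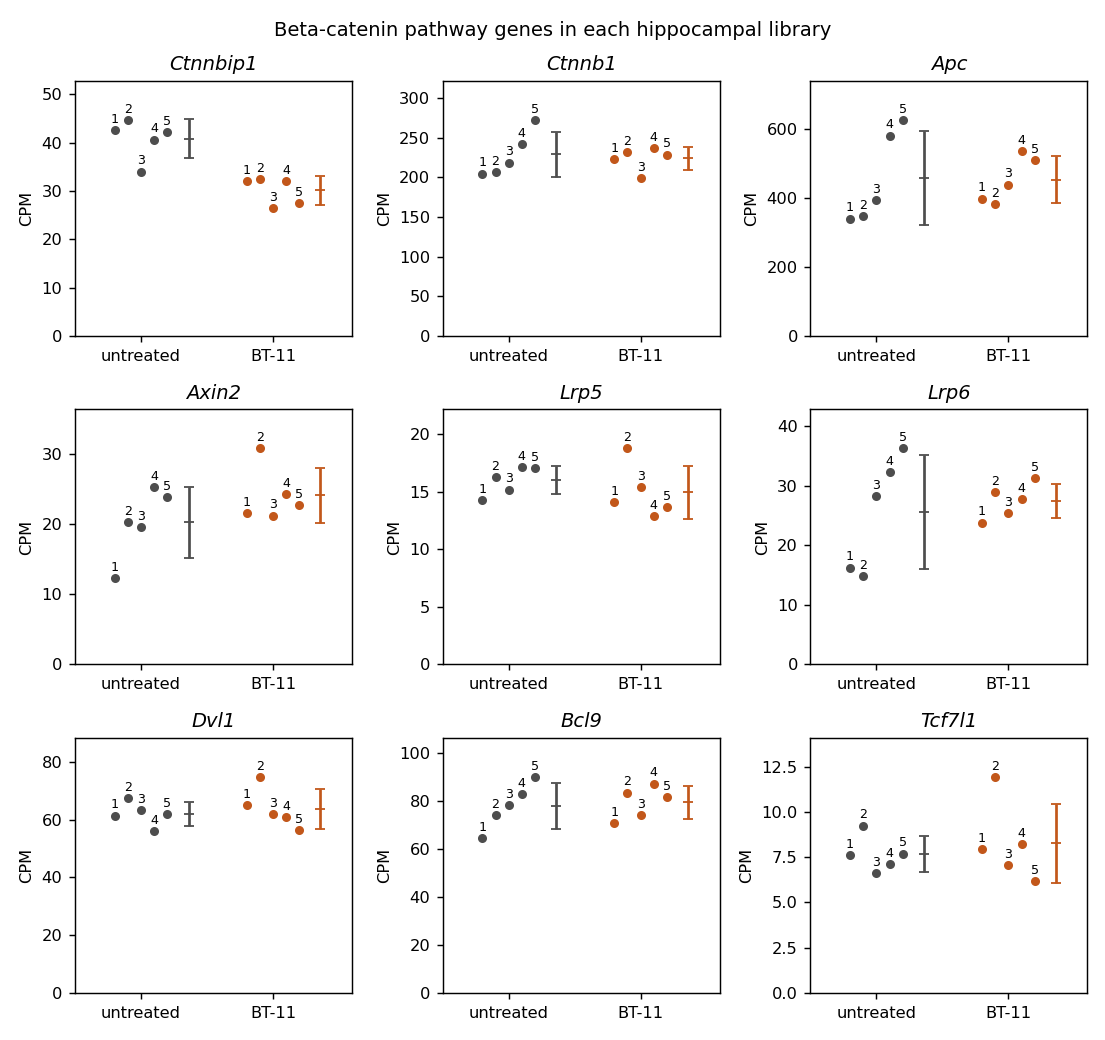
Level of each member in each library, in CPM on the vertical axis, with points numbered by replicate and the mean ± SD (n = 5) beside each group. The BT-11 libraries of Ctnnbip1 lie at 26.4 to 32.5 CPM and the untreated ones at 34.0 to 44.7 CPM, while the groups overlap for the other 8 genes.

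Markers of hippocampal cell types differed between the same libraries as Ctnnbip1. The 6 dentate granule cell markers in the table summed to 81.3, 113, 230.2, 166 and 141 CPM in untreated replicates 1 to 5, and to 210.4, 238, 223, 147 and 233 CPM in BT-11 replicates 1 to 5. Untreated replicate 3 held the highest dentate sum and the lowest Ctnnbip1 of its group, and untreated replicates 1 and 2 held the lowest dentate sums and the highest Ctnnbip1. BT-11 replicate 4 held the lowest dentate sum of its group and Ctnnbip1 at 32.1 CPM. BT-11 replicate 2 went the other way, with the highest dentate sum of all libraries and the highest Ctnnbip1 of its group, 32.5 CPM. With a score over the 4 tested dentate markers as a covariate, the log2 fold change of Ctnnbip1 was -0.29 in place of -0.45; all covariates of marker scores were added after seeing the data. All 4 were higher in BT-11 rats, and 0 passed an adjusted p of 0.05 in edgeR. Prox1, the transcription factor of granule cells, ranged from 21.6 to 82.1 CPM in untreated and from 53.5 to 92.3 CPM in BT-11 libraries.

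Ependymal markers, from the ciliated cells that line the ventricle, were lowest in replicate 3 of both groups, as was Ctnnbip1. The 7 ependymal markers in the table summed to 11.4 CPM in untreated replicate 3 and 11.2 CPM in BT-11 replicate 3, with maxima of 62.6 CPM (untreated replicate 2) and 32.6 CPM (BT-11 replicate 4). The ranges of the groups overlapped, and with the ependymal score as a covariate the log2 fold change of Ctnnbip1 was -0.44. The 10 choroid plexus markers summed to 11.9 to 3799 CPM in untreated and 9.78 to 32.8 CPM in BT-11 libraries, with the untreated maximum in replicate 2 and 727 CPM in replicate 5. Without these 2 libraries Ctnnbip1 gave -0.39. Pan-neuronal markers summed to 10230 to 12340 CPM in untreated and 8656 to 10740 CPM in BT-11 libraries (13 of 14 lower). The remaining marker was higher in every BT-11 library than in any untreated one, as were 0.578% of all genes tested. Astrocyte markers summed to 7437 to 8522 and 7122 to 7817 CPM (11 of 12 lower). With the pan-neuronal and astrocyte scores as covariates the Ctnnbip1 value was -0.38 and -0.36, respectively. CA1 pyramidal markers summed to 510.1 to 831 CPM in untreated and 510.2 to 1302 CPM in BT-11 libraries (6 of 7 higher), highest in replicate 3 of each group, and with their score the value was -0.39. CA3 pyramidal markers summed to 288.4 to 428.2 CPM in untreated and 257.1 to 358.5 CPM in BT-11 libraries (5 of 7 lower). With their score the Ctnnbip1 value was -0.40. With the choroid plexus score it was -0.36, and with that of meningeal fibroblasts, whose markers summed to 269.8 to 780 CPM in untreated and 195.6 to 333.7 CPM in BT-11 libraries (8 of 10 lower), it was -0.34. Thalamic markers (5 of 7 higher) and red blood cell markers (3 of 3 higher) were also lowest or near lowest in replicate 3 of each group, and their scores were not fitted. No marker on these lists was at 0 in all libraries. The part of cell makeup in the difference was not tested beyond these values.

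**Figure D2:**
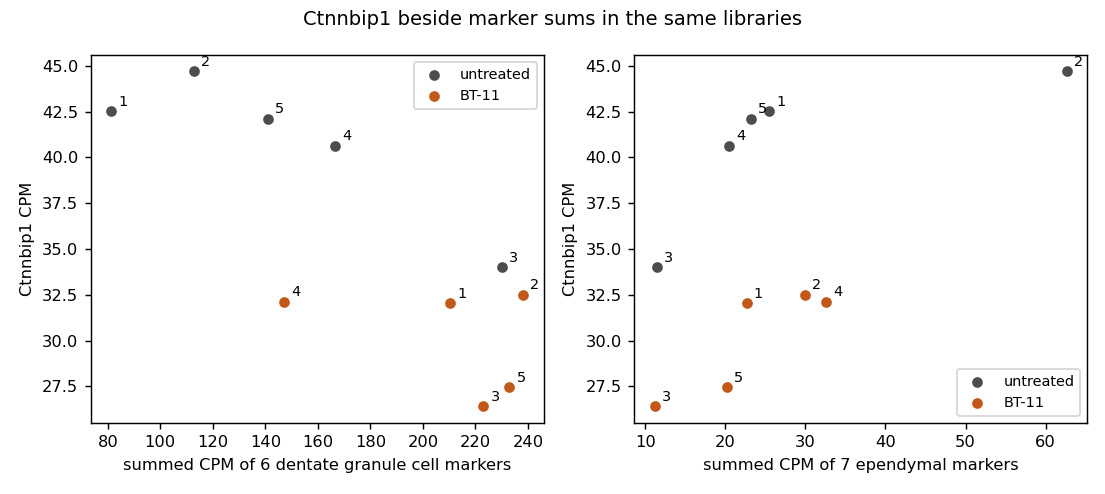
Ctnnbip1 level (CPM, vertical axis, not starting at 0) against the summed CPM of dentate granule cell markers (left) and ependymal markers (right), with 1 point per library numbered by replicate. Untreated replicate 3 lies at 230.2 CPM of dentate markers and 34.0 CPM of Ctnnbip1, and BT-11 replicate 2 at 238.2 and 32.5 CPM. Replicate 3 of each group has the lowest ependymal sum and the lowest Ctnnbip1.

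Beta-catenin itself showed no difference of the size seen for its inhibitor. Ctnnb1, on the plus strand of chromosome 8 from 129617853 to 129627363, stood at 205, 207, 218, 242 and 272 CPM in untreated replicates 1 to 5 and at 223, 232, 199, 237 and 229 CPM in BT-11 replicates 1 to 5. The BT-11 libraries lay within or just below the untreated range, and only BT-11 replicate 3 was lower than every untreated one. The log2 fold change was -0.04 ± 0.0825 (SE), with a 95% interval from -0.22 to 0.14. Per kilobase of gene model, Ctnnbip1 amounted to 0.167 ± 0.0272 of Ctnnb1 in untreated and 0.124 ± 0.00847 in BT-11 libraries (SD, n = 5 each), a ratio that does not depend on how libraries are scaled. It ranged from 0.143 to 0.2 in untreated and from 0.111 to 0.133 in BT-11 libraries, a gap that follows in part from the choice of Ctnnbip1. Untreated replicates 1 and 2 had the highest ratios, 0.192 and 0.2, and the other 3 untreated libraries lay between 0.143 and 0.155.

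The receptors at the cell surface overlapped between groups. Lrp6, one of the co-receptors, was at 16.2, 14.9, 28.2, 32.3 and 36.3 CPM in untreated replicates 1 to 5 and at 23.8, 29.0, 25.5, 27.7 and 31.3 CPM in BT-11 replicates 1 to 5. Untreated replicates 1 and 2 held less than every other library, and untreated replicates 4 and 5 held more, so that the untreated libraries enclosed all of the BT-11 ones. Its log2 fold change was 0.09 ± 0.215 (SE) over all libraries, 0.39 in replicate numbers 1 to 3 and -0.22 in numbers 4 and 5. Lrp5, the other co-receptor, ranged from 14.3 to 17.1 CPM in untreated and from 12.9 to 18.8 CPM in BT-11 libraries, with a log2 fold change of -0.11 ± 0.107. It was 0.06 in numbers 1 to 3, -0.36 in numbers 4 and 5, and -0.20 without BT-11 replicate 2, its highest library. Dvl1, a Dishevelled gene, ranged from 56.0 to 67.5 and from 56.4 to 74.8 CPM, and its log2 fold change was 0.03 ± 0.0783.

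Of the scaffolds of the destruction complex, Apc varied between animals more than between groups. Apc, on the plus strand of chromosome 18 from 27047382 to 27105334, stood at 341, 349, 394, 582 and 627 CPM in untreated replicates 1 to 5 and at 398, 384, 439, 536 and 510 CPM in BT-11 replicates 1 to 5. In both groups, replicates 4 and 5 held the highest levels and replicates 1 to 3 the lowest. The means were 458 ± 136 and 453 ± 67.4 CPM (SD, n = 5 each), and the log2 fold change was -0.03 ± 0.174 (SE), being 0.16 in numbers 1 to 3 and -0.21 in numbers 4 and 5.

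Axin2, which is both a scaffold that restrains beta-catenin and a target of it, was at 12.3, 20.3, 19.6, 25.3 and 23.9 CPM in untreated replicates 1 to 5 and at 21.6, 30.8, 21.2, 24.3 and 22.7 CPM in BT-11 replicates 1 to 5. Untreated replicate 1 was the lowest library and BT-11 replicate 2 the highest, and the other 8 lay between 19.6 and 25.3 CPM. The log2 fold change was 0.24 ± 0.162 (SE), with a 95% interval from -0.11 to 0.59. It was 0.11 without untreated replicate 1, 0.49 in replicate numbers 1 to 3 and -0.06 in numbers 4 and 5, so that its direction differed between those sets, a difference that was not tested.

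The nuclear partners of beta-catenin had small values. Bcl9, whose protein links beta-catenin to Pygopus, ranged from 64.7 to 90.2 CPM in untreated and from 70.9 to 87.3 CPM in BT-11 libraries, with a log2 fold change of 0.01 ± 0.0853 (SE). Tcf7l1, a TCF factor known mainly as a repressor, ranged from 6.63 to 9.25 and from 6.17 to 11.9 CPM. BT-11 replicate 2 was its highest library, at 11.9 CPM, and the log2 fold change of 0.09 turned to -0.07 without it. Leaving out single libraries also changed the sign of Ctnnb1, Apc, Lrp6, Dvl1 and Bcl9, whose values then ran from -0.08 to 0.03, -0.11 to 0.11, -0.05 to 0.25, -0.03 to 0.07 and -0.03 to 0.07. Over the 9 members tested, 5 were higher and 4 lower, with a median of 0.01, against -0.01 over all 11771 genes. EdgeR called none of them at an adjusted p of 0.05 over all genes, where the share called among all genes was 0%, and the 8 members other than Ctnnbip1 had adjusted p from 0.681 to 0.972 in edgeR's quasi-likelihood test. Of all genes, 1070 (9.09%) had an unadjusted p under 0.05 in edgeR, DESeq2 called 40 and limma-voom called 0.

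**Figure D3:**
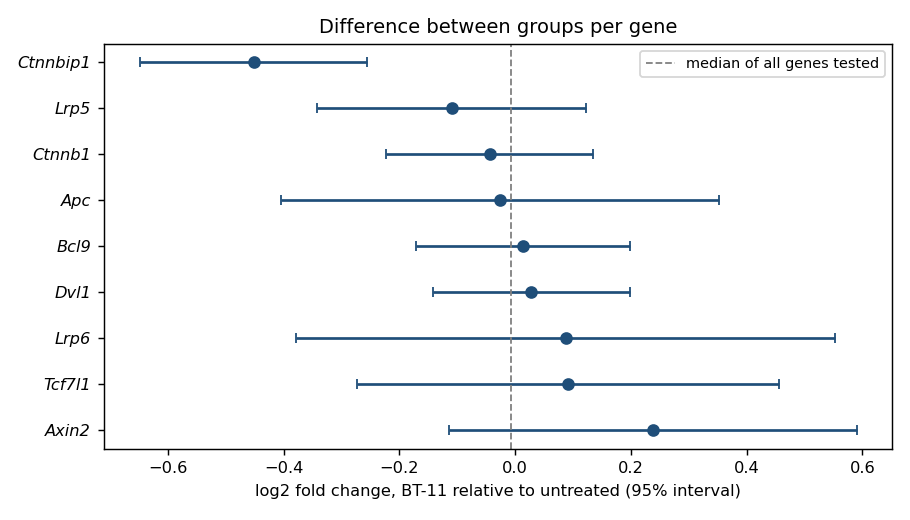
Log2 fold change of each member, BT-11 relative to untreated, with its 95% interval from edgeR's fit over 10 libraries; the dashed line is the median of all genes tested. The value of Ctnnbip1, the gene on which the set was selected, is -0.45, and those of the other 8 genes lie between -0.11 and 0.24.

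Between the members, levels per kilobase of gene model differed widely. Over all 10 libraries the order was Ctnnb1 (96.3 ± 9.18 CPM per kilobase, SD, n = 10), Apc (53.1), Dvl1 (21.3), Ctnnbip1 (14.0), Bcl9 (10.7), Axin2 (7.14), Lrp6 (5.21), Lrp5 (3.04) and Tcf7l1 (2.91). The ranges of the first 4 did not overlap with each other. Neighbours from Ctnnbip1 downward had overlapping ranges, although Ctnnbip1 exceeded Bcl9 in 9 of 10 libraries, Bcl9 exceeded Axin2 in 10 and Axin2 exceeded Lrp6 in 10. Lrp5 and Tcf7l1 could not be ordered, with Lrp5 above in 6 of 10 libraries.

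In some libraries the variation between animals followed the length of the gene models across all genes, and among the members it did so for some only. Apc and Bcl9, the longest members (8582 and 7348 bases), and Lrp6 (5092 bases) were all lowest in untreated replicate 1 or 2 and highest in untreated replicate 5. Across 11034 genes with a single line, which are not independent replicates, the deviation of a library from the mean of the 10 followed gene model length with a Spearman correlation of -0.389 in untreated replicate 1 and -0.287 in untreated replicate 2, against 0.274 and 0.270 in untreated replicates 4 and 5. BT-11 libraries ran from -0.214 (replicate 1) to 0.238 (replicate 4). The correlation was near 0 in untreated replicate 3 (-0.057) and in BT-11 replicates 2 (0.005) and 3 (0.046). The members did not line up by length, since Ctnnb1, the shortest (2352 bases), was also low in untreated replicates 1 and 2 and highest in untreated replicate 5, and Axin2 (3106 bases) was lowest in untreated replicate 1. Lrp5 (5086 bases) was lowest in BT-11 replicate 4 and highest in BT-11 replicate 2. The part of length in the values of Apc, Bcl9 and Lrp6 was not tested.

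**Figure D4:**
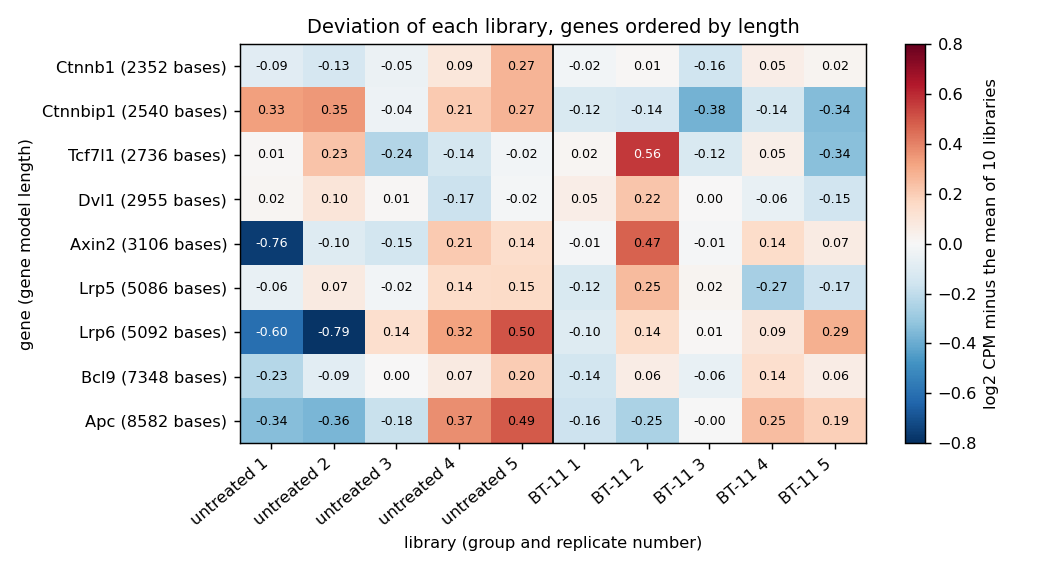
Deviation of each library (columns) from the mean of 10 libraries in log2 CPM (colour and printed values) for each member (rows, ordered by gene model length). Lrp6 and Apc are low in untreated replicates 1 and 2 and high in untreated replicates 4 and 5, whereas Ctnnbip1 is above its mean in untreated replicates 1, 2, 4 and 5 and below it in untreated replicate 3 and all BT-11 libraries.

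The wider Wnt pathway showed no common direction. Of 140 listed genes, members included, 120 were in the table and 103 were tested, with 54 higher and 49 lower and a median log2 fold change of 0.01. None of the 103 passed an adjusted p of 0.05 in edgeR. Unadjusted p was under 0.05 for 6 higher and 4 lower genes, and the 4 include Ctnnbip1, which was chosen on this contrast. Outside the members the counts were 6 higher and 3 lower of 94 tested. Among all 11771 genes, 476 (4.04%) were higher and 594 (5.05%) lower at that threshold. Of all genes tested, 1.12% had groups that did not overlap. Among the 103, besides Ctnnbip1, which was chosen for this, only Csnk1g1 did so. Csnk1g1, which encodes a casein kinase 1 gamma, was at 3.49 to 4.51 CPM in untreated and 5.2 to 6.62 CPM in BT-11 libraries. Its counts were low, 32 to 66 per library, and its log2 fold change was 0.47 ± 0.125 (SE, edgeR adjusted p = 0.412).

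Among the ligands, 7 of the 10 tested Wnt genes were higher and 3 lower, with a median of 0.27. Those with the most reads were Wnt7a, at 34.5 ± 2.22 CPM without and 36.4 ± 6.92 CPM with BT-11, and Wnt4, at 23.9 ± 3.38 and 21.1 ± 2.65 CPM (SD, n = 5 each). Wnt3a, known as a canonical ligand of the developing hippocampus, had the largest value, 1.64, but rested on 1 to 31 counts per library. Wnt5a, a ligand known mainly for signalling without beta-catenin, was at 5.17 to 8.13 CPM in untreated and 6.51 to 14.6 CPM in BT-11 libraries, with BT-11 replicates 2 and 4 at 13.0 and 14.6 CPM and the other 3 at 6.51 to 7.24 CPM. The thalamic marker sum was highest in the same pair of libraries, at 267.2 and 196.8 CPM against 109 to 148.5 CPM in the other 8. Much of this was Prkcd, at 117.3 and 61.1 CPM against 9.68 to 13.4 CPM. Ntng1 and Plekhg1, the thalamic markers with the most reads, did not follow in both, at 60.4 and 43.9 CPM and at 20.2 and 33.3 CPM. Red blood cell markers were also highest in this pair, at 236.6 and 101.5 CPM against 9.62 to 85.6 CPM. The part of these markers in the Wnt5a values was not tested. Of the genes for Wnt release, Wls and Porcn, which carry and acylate Wnt proteins, had log2 fold changes of -0.12 and 0.12. Of 9 tested Frizzled genes 4 were higher and 5 lower, with Fzd4 at -0.18 and Fzd3 at 0.14. Leaving out single libraries moved Fzd4 from -0.28 (without BT-11 replicate 3) to -0.11 (without untreated replicate 5), and Fzd3 from 0.00 (without untreated replicate 2) to 0.40 (without untreated replicate 5).

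Of the co-receptors and other Wnt receptors, Ryk, an atypical receptor of the tyrosine kinase family, ranged from 22.2 to 30.4 CPM in untreated and from 28.8 to 33.9 CPM in BT-11 libraries, with a log2 fold change of 0.26 and an adjusted p of 0.475 in edgeR. Lrp4, an antagonist co-receptor, had -0.07. Among R-spondins, which raise receptor levels by holding back their turnover, Rspo1 was at 6.11, 10.1, 2.99, 8.79 and 6.99 CPM in untreated replicates 1 to 5 and at 7.32, 1.10, 3.78, 1.70 and 1.79 CPM in BT-11 replicates 1 to 5. Its groups overlapped through untreated replicate 3 and BT-11 replicates 1 and 3, and the adjusted p was 0.499 in edgeR. Rspo2 and the R-spondin receptor gene Lgr4 had -0.15 and 0.05. Of 8 tested secreted inhibitors and their receptors 6 were lower, among them Sfrp4 at -0.72 (10 to 26 counts per library), and Dkk3 and Frzb, the ones with the most reads, at -0.21 and -0.05. Without BT-11 replicate 2 these were -0.10 and 0.06, and Dkk3 was 0.16 in numbers 4 and 5 alone.

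Of the Dishevelled genes and their regulators, 6 of 8 were higher. Dixdc1, whose protein shares the DIX domain with Dishevelled and axin, was at 118 ± 7.70 and 138 ± 12.6 CPM (SD, n = 5 each), with a log2 fold change of 0.22 ± 0.0702 (SE, edgeR adjusted p = 0.448). Dact3, an antagonist of Dishevelled, had -0.23. Of 16 tested destruction complex genes 11 were higher and 5 lower, and the kinase genes Gsk3a and Gsk3b had -0.02 and 0.10. Tnks2, a tankyrase that marks axin for degradation, had 0.19.

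The nuclear inhibitors of beta-catenin had no common direction. Of 12 tested, Ctnnbip1 included, 5 were higher and 7 lower, with a median of -0.05. Tle1, a Groucho-type corepressor, was at 39.1, 41.7, 65.6, 58.0 and 43.3 CPM in untreated replicates 1 to 5 and at 68.6, 84.9, 68.6, 53.4 and 77.0 CPM in BT-11 replicates 1 to 5. Its groups overlapped, the log2 fold change was 0.50 ± 0.152 (SE, edgeR adjusted p = 0.448), and it was 0.13 with the dentate score as a covariate. Its highest untreated library, replicate 3, and its lowest BT-11 library, replicate 4, were also those with the highest untreated and the lowest BT-11 dentate sum. The part of dentate cells in the Tle1 values was not tested. Cby1, which encodes Chibby, another small beta-catenin antagonist, had 0.05, and Tle5 and Ctbp1, corepressor genes, had -0.17 and -0.08.

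Of the 3 tested TCF and LEF genes, Tcf7l2 and Lef1 were at -0.14 and -0.20, beside Tcf7l1 at 0.09. Among 11 tested target genes 6 were higher and 5 lower, with a median of 0.05, and Ccnd1 and Neurod1, with the most reads among them, had 0.18 and 0.08. The co-activators were close to 0, with 8 values between -0.04 and 0.13, Kdm2a being the highest. Of 9 catenin and cadherin genes 4 were higher and 5 lower. Cdh2, the N-cadherin that binds beta-catenin at synaptic junctions, was at 267 ± 19.0 and 239 ± 17.5 CPM (SD, n = 5 each), with a log2 fold change of -0.17 and an adjusted p of 0.520 in edgeR, and Ctnnd2, a delta-catenin, had -0.12.

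**Figure D5:**
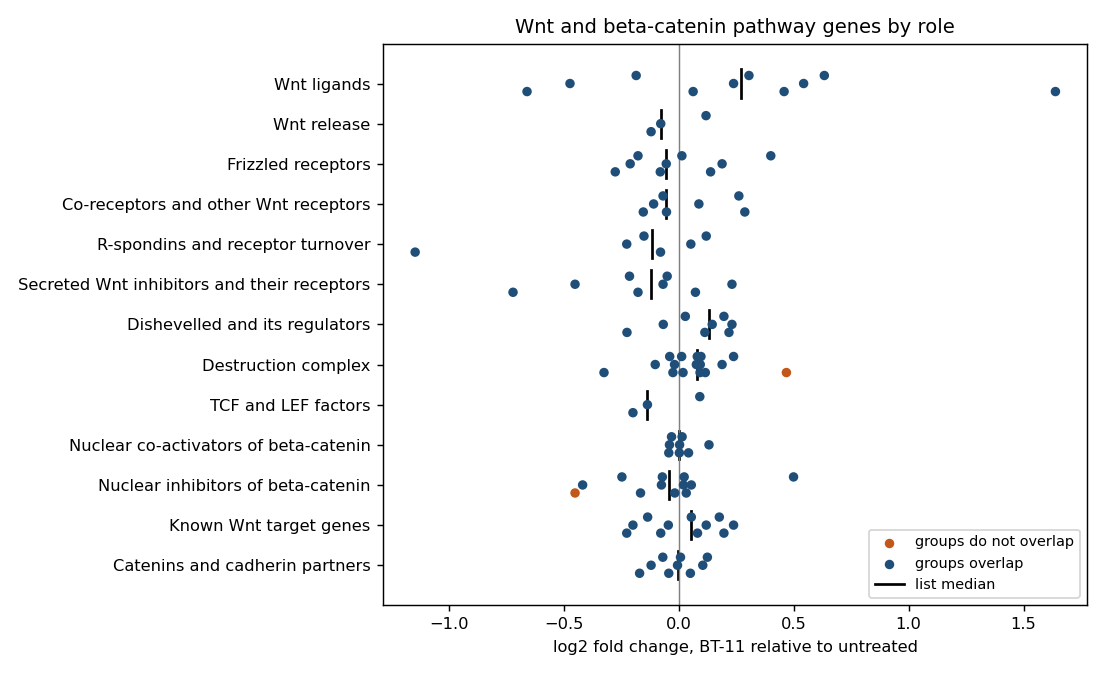
Log2 fold change of each tested pathway gene (points) by role, BT-11 relative to untreated; black bars are list medians, and orange points are genes whose groups did not overlap. The orange points are Ctnnbip1 at -0.45 and Csnk1g1 at 0.47.

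The 5 genes whose variation between animals was most like that of Ctnnbip1 were not on the pathway lists. Those lists held 103 of the 11771 genes tested, so nothing is read from this absence. Likeness was the Pearson correlation of deviations from group means in log2 CPM over 10 libraries, among 8738 genes at 10 CPM or more, and is given as a description. The 5 highest were Fbxl14 (0.973), an F-box protein gene, Lrsam1 (0.940), a ubiquitin ligase gene, Tmie (0.938), Ddx25 (0.934), an RNA helicase gene, and Armcx6 (0.929). Fbxl14 itself ranged from 35.3 to 42.9 CPM in untreated and from 36.1 to 41.2 CPM in BT-11 libraries, with a log2 fold change of -0.05. Among the members, the values ran from -0.430 for Lrp6 to 0.687 for Tcf7l1, whose mean of 7.965 CPM lay below the limit of 10 CPM.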

How the data were processed

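Per the labels' protocols, stranded libraries (KAPA Hyper Prep for mRNA) were read from one end on a HiSeq3000. Tools named in the submitters' processing notes, with no role, are STAR 2.7.9a, bcl2fastq 2.19.1.403, DESeq2 and Partek, and the build is rn6. Which program counted, with which strand setting and annotation, is not given in the sources used here. The authors deposited estimated counts per gene model (83.2% whole) and CPM, which equal the estimated count over the column total plus 1e-04.

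Estimated counts were summed per symbol and rounded, and CPM are these sums over the column total. Groups were compared with edgeR 4.0.16 (R 4.3.3; TMM, quasi-likelihood test, two-sided, Benjamini-Hochberg over all 11771 genes); the step was tested on simulated data. Alternatives used DESeq2 1.42.0, limma 3.58.1 and sva 3.50.0. Each library came from a labelled animal; no pair of libraries in a group agreed within sampling noise (chi-square per degree of freedom 4.52 to 32.4). The count data carry no molecular identifiers, so counting error is a lower bound.

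The members and gene lists were chosen with earlier results of these data known. Genes named are all members, other pathway genes with an unadjusted p under 0.05 or groups without overlap, the 2 genes with the most reads of each list, the 5 most like Ctnnbip1, its genomic neighbours, and leading markers. Lef1, Gsk3a, Gsk3b and Cby1 were named after their values were seen. Promoters are from RefSeq, build GRCr8, matched by symbol for 7 members. Positions in rn6 are as listed, and whether starts count from 0 or 1 was not settled.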

Additional observations from a re-analysis of the deposited data

Results flagged for a closer look

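Among 76 groups of 5 libraries screened (38 named genes in 2 groups), 1 held a library far from the others, where chance flags about 1 in 20. Cdh2, the N-cadherin gene, had 235 CPM in untreated replicate 1, while the remaining 4 libraries of that group held 270 to 283 CPM. Without that library its log2 fold change was -0.20 in place of -0.17. No member of the beta-catenin set was among the groups so marked.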

How the results depend on the processing

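Over 35 alternatives the log2 fold change of Ctnnbip1, whose sign the choice of the gene fixes in most of them, ran from -0.51 to -0.29, the last with the dentate score as a covariate; leaving out single libraries gave -0.51 to -0.41. The cause of the smaller value was not tested. EdgeR called 0 genes and 0 members, against 40 genes and 1 member in DESeq2, 0 to 62 genes and 0 to 1 members without single libraries (the most without untreated replicate 3), and 479 genes and 1 member in replicate numbers 4 and 5 alone. The 1 member was Ctnnbip1 each time, and since the same contrast chose this gene, nothing is read from these calls. The median of the pathway genes was 0.007 and moved to 0.106 with the astrocyte score as a covariate. Of 1540 values of other single genes, 34 moved by more than the spread between replicates and 2 became calls, both in numbers 4 and 5 alone (Wnt3a and Rspo1). The replicate block gave -0.45 for Ctnnbip1, 0 genes called and 0 members called. Deviations of same-numbered libraries correlated at 0.042 to 0.221, all positive, and those of other numbers at -0.269 to 0.229. Not every library was closest to its own number, so that the numbers were not taken as pairs. A weaker link between equal numbers was not tested. Wnt3a rested on 1 to 31 counts per library, so that its values carry wide counting error. Leaving out single libraries turned the sign of the small values of Wnt7a, Fzd3, Lrp4, Lgr4, Frzb, Tcf7l2, Neurod1, Lzic and Clstn1.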
